A study of Mus musculus with 8 samples.

Results

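Wide 3′ UTR peaks are stretches of N6-methyladenosine (m6A) signal that lie in a single exon of a 3′ untranslated region and span 300 nt or more. They were taken from the authors' 2 peak lists, 1 for Mettl3-knockout cells and 1 for control cells, as the peaks of protein-coding genes annotated to the 3′ UTR, made of 1 block and at least 300 nt wide. The knockout list held 186 of them in 171 genes, out of 6709 peaks (2.77%). The control list held 636 in 591 genes, out of 8397 peaks (7.57%), so that the members numbered 822 of 15106 peaks in all.

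The cells were primary hepatic stellate cells, liver pericytes that store vitamin A, from C57BL/6J mice with a stellate cell-specific knockout of Mettl3 (cKO) and from control mice labelled WT. Both genotypes were kept in culture for 7 days, a condition in which stellate cells turn into matrix-producing myofibroblasts. Fragmented total RNA was precipitated with an antibody against m6A, and each genotype has 2 precipitated and 2 input libraries, 8 samples in 4 groups. The Cre driver and the number of mice behind each library are not stated in the labels. Each list is 1 call for its genotype with no value per library, so no spread between replicates could be measured, read depth is unknown and no test between the genotypes was possible. Intervals in brackets are 95% Clopper-Pearson intervals and reflect counting error alone.

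m6A is placed on nascent messenger RNA by a nuclear methyltransferase complex whose catalytic subunit is Mettl3, working with Mettl14 and adaptors such as Wtap. The complex favours a short motif called DRACH, and its sites crowd in long internal exons, around the stop codon and in the 3′ UTR. Reader proteins of the YTH family bind the mark in the cytoplasm and speed deadenylation and decay of the transcript, and the 3′ UTR is also where microRNAs and AU-rich element binding proteins act. Some m6A is placed by other enzymes, among them Mettl16, which methylates hairpins in the 3′ UTR of Mat2a.

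Sequence could be shown only where RefSeq promoter windows of neighbouring genes (GRCm38.p6, the mm10 build, 300 nt each) happen to cover a member, since no genome was used here. That was so for 5 control members with at least 100 nt covered, in Mrpl43, Tnfrsf23, Arpc4, 9930111J21Rik1 and Dnajc30. The core of the methylation motif was searched as GGAC and, in its most favoured form, as GGACT, on the transcript strand and on the other strand. The 3 stretches below are the matches on the transcript strand, printed 5′ to 3′ with the motif in capitals, to show what such a site looks like inside a wide peak.
Mrpl43, chr19:45005669-45005693, minus strand: caggcgctttGGACcgtgagaggga
Mrpl43, chr19:45005452-45005476, minus strand: acttgtacaaGGACcgtgttttctg
9930111J21Rik1, chr11:48946425-48946454, minus strand: ggagcaagctGGACTcccaGGACTtctgac
Mrpl43 encodes a subunit of the mitochondrial ribosome. Its control peak was 474 nt wide with a fold enrichment of 21.7, and its covered 285 nt held GGAC at 2 places and GGACT at none. The gene 9930111J21Rik1 had a control peak of 359 nt and a fold of 60.8, and its covered 178 nt held 2 copies of GGACT separated by 4 bases. The covered parts of Tnfrsf23, Arpc4 and Dnajc30 held no GGAC on the transcript strand. For comparison, GGACT stood on a given strand in 26.1% of 32817 promoter windows of 300 nt and on either strand in 45.5%, and GGAC in 65.6% and 87.7%. A match is a description of the letters and not a methylated site.

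Wide peaks made up a smaller part of the 3′ UTR signal in the knockout list than in the control list. Of the single-block 3′ UTR peaks of protein-coding genes, 186 of 1467 in the cKO list were wide, which is 12.7% (11.0 to 14.5). In the control list 636 of 2407 were wide, which is 26.4% (24.7 to 28.2). Width is what the rule used, and each list is a single call, so these shares describe the lists and test nothing about genotype. The summed length of the members was 74.6 kb in the cKO list and 287 kb in the control list. The members themselves were also narrower in the cKO list, with a median of 360 nt (quartiles 329 and 420) against 390 nt (330 and 508) in the control list. At 500 nt or more there were 30 cKO members (16.1%, 11.2 to 22.2) and 170 control members (26.7%, 23.3 to 30.4), and at 1000 nt or more there were 1 and 14.

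**Figure D1:**
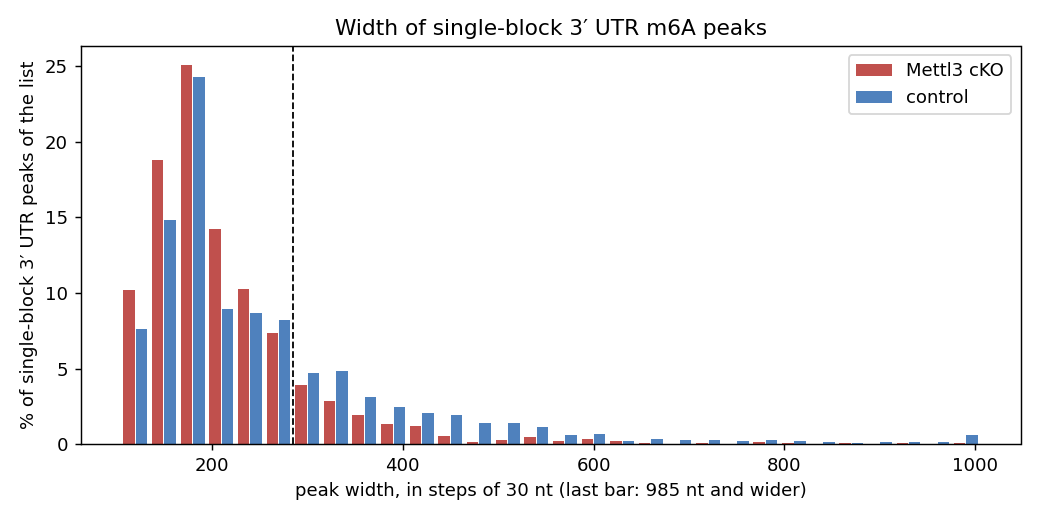
Width of single-block 3′ UTR peaks in nt, in steps of 30 nt, as a percentage of each list's single-block 3′ UTR peaks (cKO red, n = 1467; control blue, n = 2407). To the right of the dashed line, at the step of 300 nt and above, the control bars stand above the cKO bars at most steps. These bars take in peaks of 295 to 299 nt, which are not members, and add up to 14.0% (cKO) and 27.5% (control). The members alone, at 300 nt or more, make up 12.7% in the cKO list and 26.4% in the control list.

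Widths lay on a grid of about 30 nt in both lists, with 1464 of 1467 cKO and 2388 of 2407 control widths no more than 5 nt below or 1 nt above a multiple of 30. The limit of 300 nt therefore splits a step. Peaks just inside, at 300 to 301 nt, numbered 38 in the cKO list with folds of 2.21 to 84.6 and 88 in the control list with folds of 5 to 313. Peaks just outside, at 296 to 299 nt, numbered 17 in the cKO list with folds of 5.12 to 111 and 25 in the control list with folds of 5.64 to 193.

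Wide peaks stood high in their own list. The fold enrichment, read here as precipitated over input RNA although its header does not spell this out, had a median of 29.7 over the cKO members and 58.6 over the control members. Narrow 3′ UTR peaks, those under 300 nt, had medians of 11.0 in the cKO list and 13.3 in the control list. Because the 2 lists have different scales, folds are read as percentiles of their own list: the median member stood at percentile 77.3 in the cKO list (72.2 to 81.6) and 79.5 in the control list (77.1 to 81.2), and the median narrow peak at 40.8 and 36.1. A false discovery rate of 1e-05 or less was given to 93.5% of cKO members and 95.1% of control members, against 42.3% and 40.5% of narrow peaks. 3′ UTR peaks across splice junctions stood at median percentiles of 61.4 (cKO, 50.2 to 66.7) and 75.1 (control, 70.1 to 80.3). That false discovery rate was given to 73.9% (cKO) and 87.1% (control) of them. A high rank in the control list was therefore not particular to wide peaks. The fold climbed with width among narrow peaks as well: peaks of 150 to 209 nt stood at median percentiles of 35.4 (cKO) and 28.8 (control), and peaks of 210 to 299 nt at 65.4 (cKO) and 59.9 (control).

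Wide peaks of the knockout list mostly had a control peak at the same place, whereas most wide control peaks had none in the knockout list. A counterpart is a peak of the other list sharing at least 1 nt of block on the same strand. Of the cKO members, 126 of 186 had one (67.7%, 60.5 to 74.4), against 41.8% of all cKO peaks. Of the control members, 220 of 636 had one (34.6%, 30.9 to 38.4), against 33.7% of all control peaks, so the control share lay near its background. Narrow peaks had a counterpart in 37.0% of the cKO list (34.4 to 39.7) and 19.0% of the control list (17.2 to 20.9). A wide peak has more positions to share than a narrow peak, and the part of this in these shares was not tested. 3′ UTR peaks across splice junctions had one in 54.5% (cKO, 45.7 to 63.1) and 46.5% (control, 40.3 to 52.8). In the control list these junction peaks thus had a counterpart more often than wide peaks did.

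The share with a counterpart climbed with width in both lists. A wider peak meets the rule for a counterpart more easily, since it has more positions to share. The part of this in the climb was not tested, as no stricter overlap was run by width. In the cKO list it was 58.2% of members of 300 to 359 nt, 73.4% of those of 360 to 479 nt and 83.9% of those of 480 nt or more. In the control list the same bins gave 30.9%, 33.2% and 41.0%, and the intervals of neighbouring bins overlap in both lists. Along the fold quartiles of the members, lowest to highest, the cKO share was 68.1%, 56.5%, 65.2% and 80.9%, and the control share 28.9%, 23.9%, 37.7% and 47.8%. Among the 159 control members of highest fold, 76 had a peak at their place in the cKO list.

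**Figure D2:**
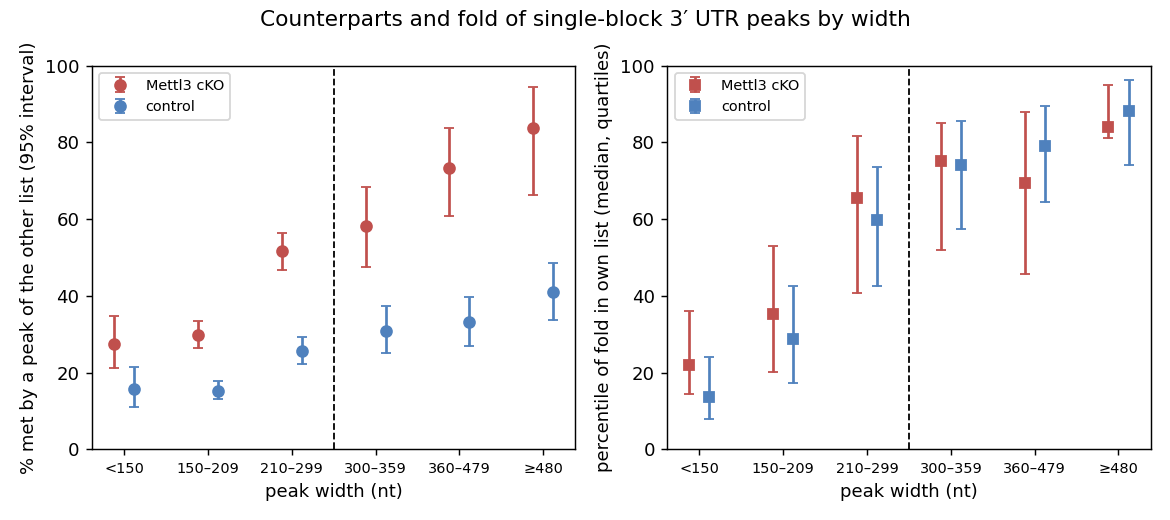
Left, percentage of single-block 3′ UTR peaks met by a peak of the other list, by peak width in nt, with exact 95% intervals; right, percentile of fold enrichment in the peak's own list, median and quartiles (cKO red, control blue, members right of the dashed line). The cKO points lie above the control points at every width on the left, 83.9% against 41.0% at 480 nt or more. On the right the control medians climb at every step of width. The cKO medians climb too, except for a fall from 75.1 at 300 to 359 nt to 69.5 at 360 to 479 nt.

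What met a member was often a smaller peak. The counterpart of the cKO members was a wide 3′ UTR peak in 60 cases, a narrow one in 56, a 3′ UTR peak across a splice junction in 7, and a coding or other exon peak in 3. For the control members it was a wide peak in 59 cases, a narrow one in 142, a junction peak in 3, and a coding or other exon peak in 16. Where there was a counterpart, it covered a median of 75.1% of the cKO member and 53.6% of the control member. It covered the whole member in 32 of 126 cKO cases and 13 of 220 control cases.

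By gene, 692 genes carried a wide peak in at least 1 list. The 171 of the cKO list are 3.98% of the genes with any cKO peak, and the 591 of the control list are 11.9% of the genes with any control peak. They comprised 101 genes wide in the cKO list alone, 521 in the control list alone and 70 in both, and the 70 are 40.9% of the cKO genes and 11.8% of the control genes. A missing wide peak was not a missing gene in most cases. Of the 171 cKO genes, 149 had some peak in the control list (87.1%), with 58 holding another 3′ UTR peak and 21 peaks elsewhere only. Of the 591 control genes, 383 had some peak in the cKO list (64.8%), with 197 holding another 3′ UTR peak and 116 peaks elsewhere only, and 208 had no cKO peak. Over all genes the shares with a peak in the other list were 65.1% and 56.1%. RNA levels were not analysed here, so less methylation, less transcript per cell and fewer cells that express the gene cannot be told apart where a peak is missing.

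Peaks elsewhere in the transcript were set against all genes of the same list. A peak in the 5′ UTR was found in 39 of the 171 cKO genes (22.8%, 16.7 to 29.8), against 11.6% of all genes with a cKO peak. In the control list it was found in 29 of the 591 genes (4.91%, 3.31 to 6.97), near the 3.77% of all genes with a control peak, so the 5′ UTR share differed between the lists as wholes too. A coding-sequence peak was found in 42.1% of the cKO genes and 34.9% of the control genes, below the 57.0% and 55.5% of all genes of each list. A gene whose single peak is the wide one cannot have a coding peak, and that was so for 47 cKO genes (27.5%) and 251 control genes (42.5%). Over all genes with a peak, 64.7% (cKO) and 61.9% (control) had a single one, so the wide genes more often held several. The part of peak number in the 5′ UTR and coding shares was not tested. Where there were several peaks, the wide one had the highest fold in 71 of 124 cKO genes and 227 of 340 control genes.

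Members of the knockout list lay nearer to the end of the gene. The distance from the centre of a peak to the 3′ end of its RefSeq gene had a median of 846 nt over 183 cKO members (quartiles 247 and 2247) and 1636 nt over 619 control members (703 and 3042). Within 500 nt of the end were 77 cKO members (42.1%, 34.8 to 49.6) and 107 control members (17.3%, 14.4 to 20.5). Narrow peaks showed the same order, with 46.4% within 500 nt in the cKO list and 26.1% in the control list. The cKO members with no control counterpart were the ones closest to the end, with a median of 353 nt and 57.6% within 500 nt (44.1 to 70.4), against a median of 1086 nt and 34.7% (26.4 to 43.7) for those with a counterpart. In the control list the order was the opposite: 11.6% of members without a cKO counterpart lay within 500 nt (8.63 to 15.1), against 28.2% of those with one (22.2 to 34.7). In the 69 genes placed in both lists, the cKO members were nearer to the end in 38, the control members in 16, and both within 15 nt in 15, with a median difference, cKO minus control, of -30 nt. The distance runs to the gene's annotated end, which is not always the end of the transcript in use: the Samd5 members lay 362048 nt (cKO) and 362332 nt (control) from it and those of Ankrd11 between 8255 and 12482 nt.

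**Figure D3:**
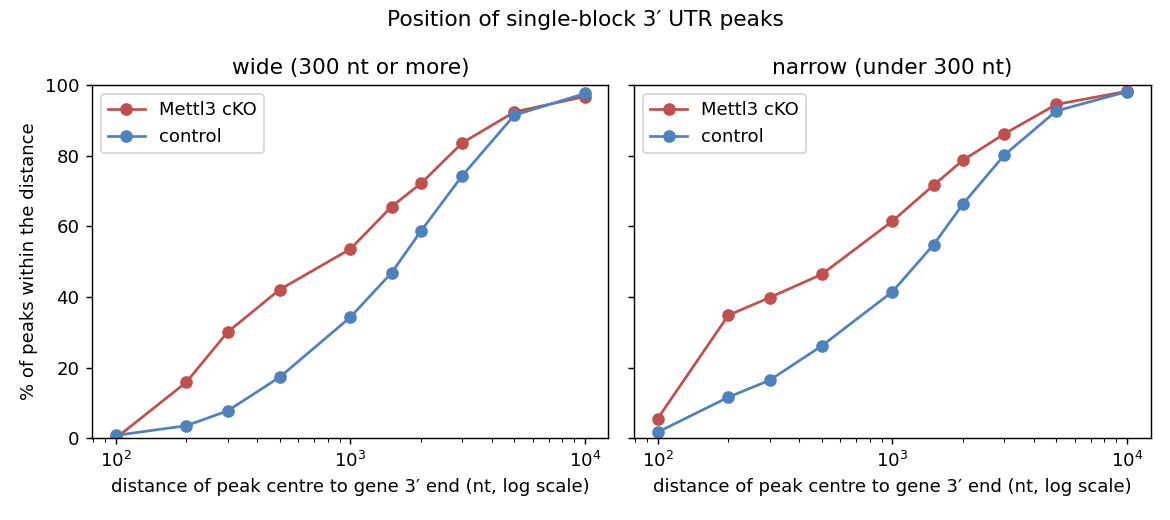
Percentage of peaks whose centre lies within a given distance (nt, log scale) of the RefSeq 3′ end of the gene, for wide peaks (left; cKO n = 183, control n = 619) and narrow peaks (right; n = 1235 and 1729), cKO red and control blue. At 500 nt the cKO curve of wide peaks stands at 42.1% and the control curve at 17.3%, and the curves meet near 5000 nt.

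Places where both lists had a wide peak numbered 61 pairs in 54 genes. In these pairs the control peak was the wider in 38, the cKO peak in 17, and 6 were within 5 nt of each other, with median widths of 361 nt (cKO) and 421 nt (control). The cKO peak lay wholly inside the control peak in 28 pairs and the control peak inside the cKO peak in 12. The median shift between centres was 60 nt, with the cKO centre upstream in 26 and downstream in 31. The fold was higher in the cKO list in 15 pairs and in the control list in 46, and as percentiles of their own list in 26 and 35. The choice of pairs asks only that both are wide, so these counts are a description with no replicate behind them.

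The pairs with the best mean percentile included a phosphatase, a lysosomal protease and a receptor. Inpp1, an inositol polyphosphate phosphatase, had a 539-nt cKO peak of fold 262 and a 360-nt control peak of fold 303 (chr1:52788656-52789015), the control peak lying inside the cKO peak. Ctsd, the lysosomal protease cathepsin D, had folds of 211 (cKO) and 115 (control) over nearly the same place, chr7:142375941-142376268 and chr7:142375941-142376298. Fcgr2b, the inhibitory Fc gamma receptor, had 156 in the cKO list and 361 in the control list. These 3 genes stood at percentile 89.8 or higher of each list.

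Other pairs had folds that lay further apart. Magt1, a magnesium transporter and subunit of the oligosaccharyltransferase, had folds of 195 (cKO, percentile 98.7) and 31.8 (control, percentile 65.9). Fads3, a fatty acid desaturase family member, had 171 (cKO) and 30.8 (control), and Sox4, a SOX family transcription factor, had 170 (cKO) and 48.7 (control). Sox4 members also overlapped peaks on the opposite strand in both lists. In the reverse direction, Aff1, a super elongation complex subunit, had 35.7 (cKO) and 1340 (control), and Rnd3, an atypical small GTPase that lowers actomyosin contraction, had 10.2 (cKO) and 1110 (control). Tns1, the focal adhesion protein tensin 1, had 72.1 in a 331-nt cKO peak and 1150 in a 930-nt control peak that contained it, and stood high in both lists, at percentiles 92.7 (cKO) and 99.7 (control). Cebpd, an acute-phase transcription factor, stood at percentile 1.62 in the cKO list with a fold of 2.21 and at percentile 98.7 in the control list with 506.

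**Figure D4:**
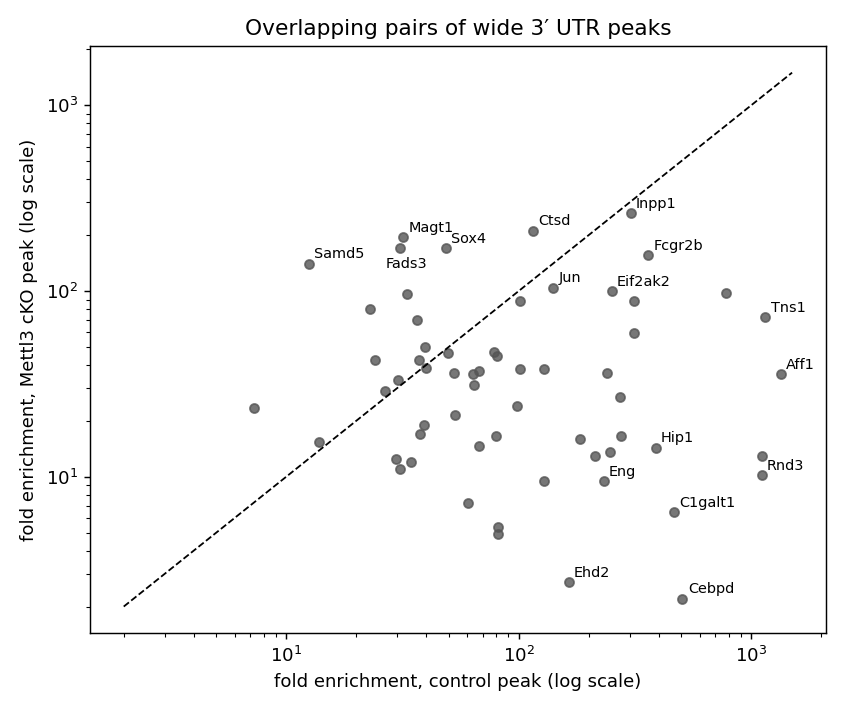
Fold enrichment of the 61 overlapping pairs of wide peaks, cKO on the vertical and control on the horizontal axis, both log scales, with the line of equal fold dashed. Of the points, 15 lie above the line, among them Ctsd, Magt1, Fads3, Sox4 and Samd5, and 46 below it, among them Aff1, Rnd3, Tns1 and Cebpd.

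A few genes held several members. Ankrd11, a chromatin-associated ankyrin repeat protein, had 5 in each list and the widest control member, 2009 nt at chr8:122892086-122894094, which met cKO members of 870 and 630 nt. Its highest folds were 97.8 in the cKO list and 783 in the control list, at the same place. Peg10, an imprinted gene derived from a retrotransposon, had 2 cKO and 5 control members. At 1 place the folds were 46.2 (cKO, percentile 86.8) and 49.5 (control, percentile 76.3). At another a 449-nt cKO peak of fold 12.9 lay inside a 1256-nt control peak of fold 1110. Slfn9, a Schlafen family gene, had 3 cKO members with folds of 132, 50.8 and 13.6 and 1 control member with 247.

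Among the highest members of the knockout list, the top one had no control counterpart. Ydjc, which encodes a deacetylase-like protein, had a fold of 3200 at chr16:17160044-17160372, with no control peak in the gene. That place also carried a cKO peak on the opposite strand and lay outside the RefSeq gene, so the strand and gene of this signal are uncertain. Akt1, the serine/threonine kinase of the PI3K pathway, had a 420-nt cKO peak of fold 195 at chr12:112653851-112654270, 240 nt from the gene's end, where the control list had none. The Akt1 peak in the control list was a coding one with a fold of 13.3.

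Other cKO members met control peaks of several kinds. Lgals9, the lectin galectin-9, had 218 in a 327-nt cKO peak and 43.2 in a 268-nt control peak. H2-D1, a classical MHC class I gene whose near-identical relatives can share reads, had 215 in a 421-nt cKO peak and 10.5 in a 151-nt control peak. P3h3, a collagen prolyl hydroxylase, had 200 in a 331-nt cKO peak and 251 in an 841-nt control peak that crosses a splice junction. Basp1, a membrane-bound growth cone protein, had 171 in a 331-nt cKO peak and 6.91 in a 181-nt control peak, an example chosen after its values were seen. Inhba, the activin A subunit, held the second widest cKO member, 931 nt with a fold of 36.8, and the control list had a coding peak of 1681 nt and fold 162 reaching into it.

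Of the highest members of the control list, Aff1, Tns1, Rnd3, Peg10 and Ankrd11 had a wide cKO counterpart, as given above, Dusp3 had a narrow one, and Lats2, Lypd1 and Camk2g had none. Lats2, the Hippo pathway kinase that phosphorylates YAP and TAZ, held the highest fold of the whole control list, 3530 in 509 nt at chr14:57690859-57691367, and no cKO peak met it. The Lats2 peaks of the cKO list were 4 in the coding sequence, with folds of 13.6 to 81.3, and a narrow 3′ UTR peak of fold 15.4 at chr14:57689692-57689841, beyond the control peak and nearer to the gene's end. Dusp3, a dual-specificity phosphatase, had a narrow cKO peak of fold 24.3 inside a 478-nt control peak of fold 1890. Lypd1, a GPI-anchored LY6 family protein, had no cKO peak in the gene and a 1019-nt control peak of fold 1260, which overlapped a control peak on the opposite strand. Camk2g, a calcium/calmodulin-dependent kinase subunit, had no cKO peak either and a control member of fold 783.

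Some genes with wide control members had only narrow peaks in the cKO list. Il6st, the shared gp130 receptor of the IL-6 family, had narrow cKO peaks with folds of 6.88 and 8.09. Its control members were of 1621 nt with a fold of 775 and of 331 nt with a fold of 14.5. No cKO peak met the 1621-nt member, and the peak of fold 6.88 met the 331-nt member at its edge. Egfr, the epidermal growth factor receptor, had narrow cKO peaks of fold 5.33 and 19.3, and an 840-nt control member of fold 730 that none of them met. Zfp809, a zinc finger repressor of retroviral elements, had a narrow cKO peak of fold 16.2 inside a 1286-nt control member of fold 298.

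Gene lists showed where these members fell. Counts are genes with a wide peak out of the list's genes with any peak, against 3.98% over all cKO genes and 11.9% over all control genes. No list was tested, and with lists of this size each share has a wide interval. Since the control share is the higher over all genes, a larger control count in a list is not by itself a result about that list.

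Hippo kinases and adaptors held a wide peak in 1 of 19 cKO genes (5.26%) and 3 of 22 control genes (13.6%), near the shares over all genes. Amotl1, an angiomotin family scaffold of the pathway, was the cKO gene, with a fold of 31.3 over a narrow control peak of 29.4. The control genes were Lats2 (3530), Amotl2 (505 over 1199 nt), another angiomotin, and Vgll3 (146), a TEAD cofactor. YAP and TEAD target genes held none of 16 cKO genes and 6 of 17 control genes, Lats2 and Amotl2 among them, with Gadd45a (48.7) the gene without any cKO peak. Ctgf, the textbook YAP target, had a low control member of fold 5.85.

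Receptor tyrosine kinase, PI3K and MAPK genes held a wide peak in 1 of 17 cKO genes, Akt1, and in 11 of 41 control genes. The control genes included receptors such as Egfr (730) and Igf1r (236) and feedback inhibitors of ERK signalling, Dusp4 (571), Dusp5 (246), Spry1 (132) and Spry4 (37.2). Dusp4 had a narrow cKO peak of fold 13.2 inside the place of its control member. Cytokine, NF-kB and JAK-STAT genes held none of 18 cKO genes and 7 of 29 control genes, from Il6st (775) and Tnfrsf1a (136) down to Il1r1 (15.5).

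TGF-beta and BMP genes held a wide peak in 3 of 21 cKO genes and 7 of 24 control genes. Ski, a co-repressor of SMADs, had one in both lists at different places, 44.5 (cKO) at 165 nt from the gene's end and 30.1 (control) at 3110 nt. Smad7, the inhibitory SMAD, had a fold of 25.7 in a 330-nt cKO peak and 5.90 in a narrow control peak. The control genes included Ltbp1 (339), which anchors latent TGF-beta, Bmpr1a (313), Tgfbr2 (59.2) and the SMAD-directed ubiquitin ligases Smurf2 (93.0) and Smurf1 (29.0); of these, Bmpr1a was the gene with a cKO peak. Wnt, Notch and hedgehog genes held 1 of 15 cKO genes and 5 of 23 control genes, with Wnt4 in both. Its folds were 33.1 (cKO, percentile 80.0) and 30.2 (control, percentile 64.4).

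Immediate early and stress transcription factors held the largest control count of these lists, with a wide peak in 4 of 23 cKO genes and 13 of 32 control genes. Many of these short-lived mRNAs carry decay elements in their 3′ UTRs. Jun, Maff and Cebpd had one in both lists, with folds of 104 (cKO) and 141 (control) for Jun and 10.7 (cKO) and 82.5 (control) for Maff. The Maff members did not overlap, and the control member was met by a narrow cKO peak of fold 9.56. Klf6 had a wide peak in the cKO list alone (35.9 over 658 nt), met by a narrow control peak of 86.6. Among the 10 control genes were Ier5 (385), Fosl2 (238), Klf2 (143) and Myc (83.7), and 8 of the 10 had some cKO peak, such as a narrow one of 9.93 for Ier5 and of 5.70 for Klf2. Cell cycle and p53 genes held none of 16 cKO genes and 7 of 18 control genes, with Cdkn2b (393), the CDK inhibitor p15, and Btg2 (392), an antiproliferative deadenylation factor, the highest.

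Matrix and myofibroblast genes differed less in number. Collagens and matrix genes held a wide peak in 6 of 37 cKO genes and 6 of 29 control genes, with Loxl3, a lysyl oxidase, and Adamts1, a metalloprotease, in both. Their folds were 23.9 (cKO) and 98.2 (control) for Loxl3 and 7.22 (cKO) and 60.8 (control) for Adamts1. In the cKO list alone were Loxl2 (33.8), Timp2 (24.3), Nid1 (5.04) and Col4a1 (2.69), and in the control list alone Adamts5 (68.0), Fbn1 (40.3), Tnc (24.2) and Col5a1 (23.4). Markers of activated stellate cells and myofibroblasts held 5 of 21 in each list. Pdgfrb, the PDGF receptor that drives stellate cell growth, had a coding peak of 18.3 and a narrow peak of 5.52 in the cKO list and members of 350 and 21.7 in the control list. Itgb1, the beta-1 integrin, had 49.6 (cKO) and 3.00 (control) at places that did not overlap, and Actn1, alpha-actinin 1, had 23.4 (cKO) and 7.25 (control) in overlapping peaks. Quiescent stellate cell and retinoid genes held 1 of 16 cKO genes, Hand2 (7.17), and 4 of 14 control genes, Gata6 (201), the retinoid receptors Rara (51.9) and Rxra (28.2), and Dhrs3 (20.1).

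Regulators of RNA and protein turnover were also counted, and at the cKO share over all genes a count of 0 in lists of this size is no result about them. MicroRNA and decay factors held none of 12 cKO genes (up to 26.5% by the interval) and 4 of 18 control genes, the helicase Ddx6 (118), Tnrc6b (59.2), Upf2 (47.4) and Ago2 (43.1). Ubiquitin ligases held none of 20 cKO genes (up to 16.8%) and 8 of 29 control genes, led by Fbxo11 (140). Solute carriers held none of 10 and 4 of 17, led by the glucose transporter Slc2a1 (154). Small GTPases and their regulators held 2 of 22 cKO genes, Cdc42 (39.4) and Rnd3 (10.2), and 6 of 26 control genes, with Rhob (263) second to Rnd3.

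In other lists the counts were low in both genotypes, but every interval took in the share over all genes, so they are no result about these lists. Chromatin regulators held none of 31 cKO genes and 1 of 39 control genes, Asxl2 (157). m6A writers, readers and erasers held none of 11 and none of 15. Cytosolic ribosomal proteins held none of 48 (up to 7.40% by the interval) and none of 21 (up to 16.1%).

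**Figure D5:**
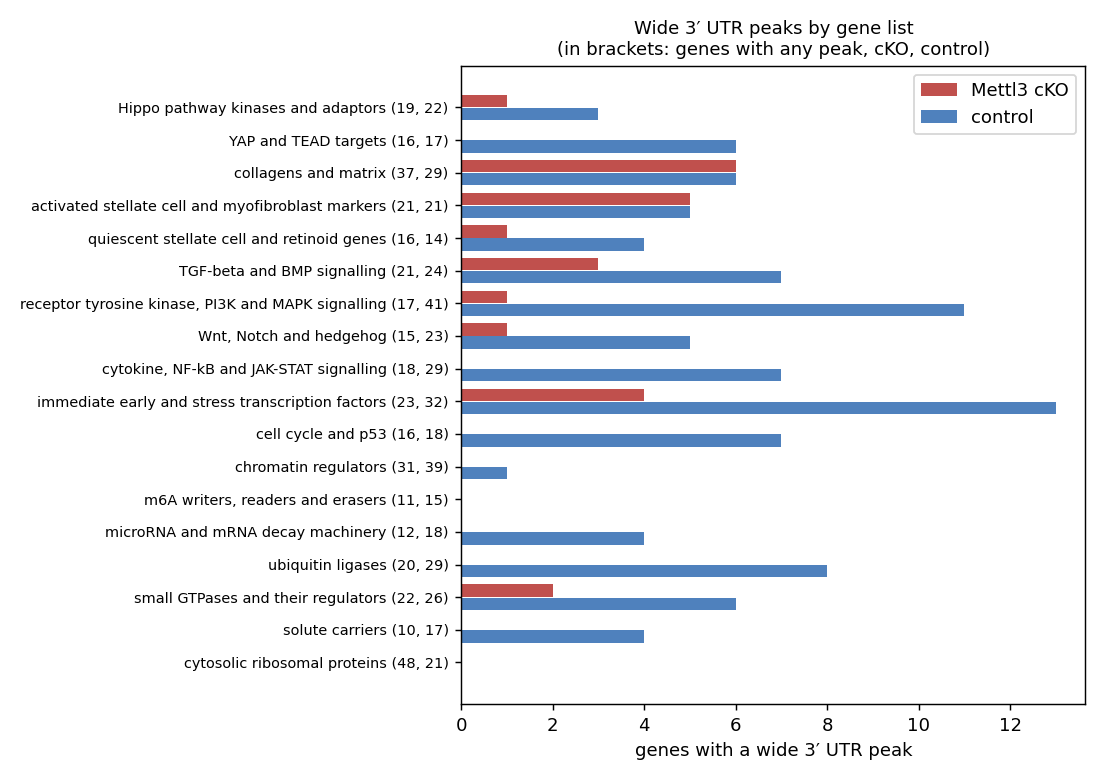
Number of genes with a wide 3′ UTR peak in each gene list (cKO red, above; control blue, below), with the list's genes that have any peak in brackets (cKO, control). The control bar is the longer in most lists, 13 against 4 genes for immediate early and stress factors, while collagens and matrix genes stand at 6 each and ribosomal proteins at 0.

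Other liver cells could add peaks of their own, so their markers were read in the same way. Stellate cell markers had a peak in 6 of 7 genes in each list. Hepatocyte markers had none of 5 in either list, and macrophage markers had 1 of 5 in each, Cd68 in the cKO list and Csf1r in the control list. Krt19 was the cholangiocyte marker with a peak, in the cKO list (1 of 4, and none of 4 in the control list). Endothelial markers had a peak in 4 of 6 genes in the cKO list and 5 of 6 in the control list. The members among them were Eng, with 9.44 (cKO) and 232 (control), and Cdh5, VE-cadherin, with a narrow cKO peak of 73.2 at the place of a control member of 468. The part of endothelial cells in these values was not tested.

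Some members share a place and are not independent. In the cKO list 4 members, the gamma protocadherins Pcdhga4, Pcdhga7, Pcdhga9 and Pcdhgb7, are 1 stretch in the exon that these cell-adhesion genes share, with a fold of 24.6. In the control list 14 members overlap another member on the same strand. A peak of the same list on the opposite strand overlapped 7 cKO members and 27 control members.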

How the data were processed

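Per the labels, RNA of 2 genotypes was taken after 7 days of culture, 100 µg was cut to 100 to 200 nt, and precipitated and input libraries were read as 150-bp paired ends. The authors deposited 1 peak list per genotype, and the tools named in the submitters' processing notes are HISAT2 and HOMER, with mm10 as the build. The peak caller, thresholds, handling of replicates and strand setting are not given in the sources used. Per the file headers, each deposited peak has a p-value (at most 0.046 in the cKO list and 0.049 in the control list) and a fold enrichment, a ratio. The deposited log10 columns of the p-value and of the false discovery rate were handled as a score, and cells lost to a spreadsheet error were taken as the smallest.

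Members were joined to peaks of the other list on the same strand by shared blocks of at least 1 nt, and folds were ranked within each list. Distances to gene ends used RefSeq GRCm38.p6, which named the genes of 186 of 186 cKO and 632 of 636 control members; 183 and 619 lay inside the gene. The overlap computation was tested on shifted copies of control peaks, and the share and median intervals on simulated data. Python 3.11.15, pandas 2.3.3, numpy 2.4.6, scipy 1.17.1 and matplotlib 3.10.9 were used.

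The members and gene lists were chosen with earlier results of these data known. Named genes were the 8 members of highest fold per list, the 8 best-ranked pairs, the 5 widest members and the 5 genes with most members per list, Lats2, and from each of 22 gene lists up to 2 genes wide in both lists, 2 wide for cKO alone and 3 wide for control alone, with predicted genes passed over. Other names, and 4 further lists, were chosen after seeing their values. Alternatives changed the width limit, the overlap, the false discovery rate and the counting of shared places.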

Additional observations from a re-analysis of the deposited data

How the results depend on the processing

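The cKO list had fewer members, a smaller wide share and a larger share met by the other list under every alternative run. With limits of 250 and 400 nt in place of 300, the cKO members numbered 313 and 58 and the wide share was 21.3% and 3.95% in the cKO list and 35.7% and 12.4% in the control list, with 132 and 16 genes in both. At 400 nt the control members numbered 299, the share met was 81.03% (cKO) and 39.1% (control), the median fold percentile 83.7 (cKO) and 85.6 (control), and 30.4% of cKO members lay within 500 nt of the gene end. At 250 nt the control fold percentile was 76.7. Keeping peaks with a false discovery rate of 1e-05 or less gave a wide share of 24.3% (cKO) and 45.7% (control), fold percentiles of 62.9 and 67.6, and 26.4% of control members met. Asking for 50% overlap of both peaks gave 45.2% (cKO) and 18.4% (control) met, and asking for a wide counterpart 32.3% and 9.28%. The other 46 values, among them those with a limit of 295 nt or with shared places counted once, stayed within 1.5 times for counts and within the interval for shares and percentiles. The limit of 295 nt, the merging of overlapping members and every alternative for the gene-end share were chosen after the data were seen. No paired analysis was possible because the lists hold no replicate columns and no result comes from a test. Depth and signal per library are unknown, so a peak missing from a list is not a measured absence.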

Other observations

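A set of interferon-induced and MHC class I genes, chosen after the values were seen, held a wide peak in 9 of 44 genes with any cKO peak and 6 of 30 with any control peak. The intervals of these shares ran from 9.80% to 35.3% (cKO) and from 7.71% to 38.6% (control). The shares over all genes were 3.98% (cKO) and 11.9% (control), so the control interval took in its share over all genes. The cKO interval lay above its own, but a set chosen in this way tests nothing. Eif2ak2, the double-stranded RNA sensor kinase PKR, had folds of 100 (cKO) and 251 (control) in overlapping members. Slfn5, a Schlafen family gene, had 2 members in the cKO list, of 778 nt with a fold of 43.8 and of 569 nt with 39.9, and 2 coding peaks in the control list with folds of 6.44 and 6.04. Ifit1, an interferon-induced RNA-binding protein, had 56.7 in a 538-nt cKO peak and 12.9 in a 150-nt control peak. Trim12c and Iigp1 had cKO members of 43.4 and 37.5 and no control peak. The list's transcripts were not measured, so the part of RNA level in these values was not tested.

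Other genes chosen after their values were seen were the nuclear factor I transcription factors, wide in 3 of 4 cKO genes and 1 of 4 control genes. The shares over all genes were 3.98% (cKO) and 11.9% (control). Nfic had 120 (cKO) and 38.7 (control) at places that did not overlap, and Nfib and Nfix had cKO members of 53.3 and 21.1 that no control peak met. Lysosomal protein genes were wide in 4 of 17 cKO genes and 4 of 16 control genes, with Ctsa, Ctsd and Creg1 in both, Gaa in the cKO list and Ctsb in the control list. Mat2a, which makes the methyl donor S-adenosylmethionine and whose 3′ UTR hairpins are methylated by Mettl16, had 2 wide cKO peaks with folds of 43.0 at chr6:72432859-72433367 and 20.2 at chr6:72434174-72434563. Its control peaks there were all narrow, with folds of 25.4, 8.45 and 8.05, and the last shared 1 nt with the second cKO peak. The first cKO peak spans the narrow control peaks of fold 25.4 and 8.45, so a single wide call there stands over split narrow ones. Mat2a too was chosen after its values were seen. The parts of peak splitting, read depth, RNA level and Mettl16 in these values were not tested.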
